A study of Mus musculus with 2 samples.

Results

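Immediate early genes are a set of 9 genes here, chosen by symbol from the 32285 genes of the deposited table: the transcription factor genes Fos, Fosb, Jun, Junb, Jund, Egr1 and Nr4a1 and the phosphatase genes Dusp1 and Dusp2. Each symbol matched 1 row, and all 9 passed the filter on low counts in every test. Their transcripts were followed across cell types of a mouse spleen preparation enriched for natural killer (NK) cells by negative selection, a step in which labelled non-NK cells are held back on a column. The mice were wild type, no treatment is recorded, and the labels give neither strain nor age. Lipid-anchored oligonucleotide tags marked the cells of different mice before pooling, and 3 tags were found in the 1 library analysed here. The labels do not say which tag is which mouse. The tags serve as the replicates of each comparison and enter the tests as a block. P-values therefore rest on the spread left across 3 tags of 1 library once each tag's own level is taken out. That spread may be technical. The labels name a second sample, which was not analysed here.

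Immediate early genes are transcribed within minutes of a stimulus, without any new protein being made, because their promoters are bound by factors that wait for phosphorylation by mitogen-activated and stress-activated kinases. Fos-family and Jun-family proteins pair to form the AP-1 transcription factor, Egr1 and Nr4a1 encode a zinc-finger factor and an orphan nuclear receptor that rise with antigen receptor signalling in lymphocytes, and Dusp1 and Dusp2 encode nuclear phosphatases that switch the kinases off again. Their messages decay quickly, so the level in a cell follows its recent past, and tissue dissociation is known to raise them. The labels do not record how long the cells of each tag were handled, and the part of handling in the levels below was not tested.

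After filters on genes per barcode and mitochondrial share, 15742 of 16384 barcodes remained, and the 11696 with exactly 1 tag were used (3590, 4213 and 3893 in tags 1, 2 and 3). Summed molecule counts (unique molecular identifiers, UMIs) were 18485480, 23091461 and 22465648 in tags 1, 2 and 3, and the median cell held 4026.5, 4433 and 4125 UMIs. Cells were classed by counts of marker genes whose thresholds were set after values were seen, and class names carry the ending -like for that reason. There were 8499 NK-like cells (72.7%), 591 B cell-like, 238 conventional dendritic cell-like, 155 ILC1-like (type 1 innate lymphoid), 127 erythroid-like, 113 T cell-like and 54 progenitor-like cells, and 1667 cells (14.3%) stayed ungated. All classes other than NK-like and ILC1-like are what the selection left behind. Genes kept out of the gates were highest in their own class among classes of at least 50 cells, for instance Bcl11b in T cell-like and Angpt1 in progenitor-like cells; the exceptions were Gpr183, set aside for ILC1-like cells and highest in B cell-like cells, and Gata1, set aside for erythroid-like cells and highest in platelet or megakaryocyte-like cells. Pairs of cells caught under 1 barcode with a shared tag could not be removed; about 1795 such barcodes (15.3% of single-tag cells) follow from the number with several tags, and the gates take out those showing markers of another class. No barcode occurred more than 1 time in the library.

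Levels are in CPM (counts per gene after scaling each sum of a class within a tag to the same total), and levels of different genes are not ranked against each other because 3′ counts depend on each transcript's end. The NK granule protease transcript Gzma was also counted in other cells: the 6 other tested classes held it at 0.723% to 2.48% of its NK-like CPM. The part of free RNA, of pairs of cells under 1 barcode and of the cells' own transcripts in this was not tested. In the same classes the lowest member level was that of Dusp2 in erythroid-like cells, at 9.89% of its NK-like CPM. At a common depth of 2400 UMIs per cell, Gzma was seen in 37.6% of B cell-like cells and 95.4% of NK-like cells, whose median depths before thinning were 3809 UMIs in B cell-like and 4212 UMIs in NK-like cells. Shares of cells with a UMI are therefore read beside the CPM and not alone.

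Tag 1 stood apart for these genes. In NK-like cells, Dusp1 had 305, 97.5 and 92.4 CPM in tags 1, 2 and 3, and Fos had 623, 274 and 205 CPM. Junb had 1871, 802 and 871 CPM and Nr4a1 had 81.1, 42.9 and 46.4 CPM. Tag 1 was the highest of the 3 tags for 8 of the 9 members in NK-like cells, against 32.9% of the 3542 genes compared there. Expressed as tag 1 over the mean of tags 2 and 3, the ratio was 3.21 for Dusp1, 2.60 for Fos, 2.24 for Junb, 1.82 for Nr4a1, 1.64 for Egr1, 1.59 for Fosb, 1.44 for Jund and 1.15 for Jun. The median over the members was 1.64 and that over all genes compared was 0.994. Dusp2 was the exception in NK-like cells, with 410.0, 405 and 549 CPM and a ratio of 0.860.

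The same tag was high in most other classes but not in T cell-like cells. The median ratio over the members was 1.86 in progenitor-like, 2.28 in ILC1-like, 1.53 in B cell-like, 2.40 in conventional dendritic cell-like and 3.64 in erythroid-like cells, with 8, 8, 6, 7 and 8 of 9 members highest in tag 1. Of all genes compared, 31.4%, 32.9%, 33.0%, 31.9% and 28.6% were highest in tag 1 in these classes. Their median ratios were 0.979, 0.987, 0.978, 1.01 and 1.00. In T cell-like cells, gated from 30, 18 and 65 cells of the 3 tags, the median ratio was 0.848 and only Fos was highest in tag 1, at 1.11 times the mean of the other tags. There 30.9% of all genes compared were highest in tag 1, with a median ratio of 0.957. Whether T cell-like cells differ from the other classes in the tag 1 ratios of the members was not tested. Single members ranged widely: Nr4a1 reached 10.6 in erythroid-like and 6.41 in progenitor-like cells, while Dusp2 was at 0.419 in ILC1-like cells and Jun at 0.564 in B cell-like cells. The erythroid-like ratios sit beside a difference in haemoglobin transcripts, which took 0.0199%, 0.00435% and 1.88% of the UMIs of erythroid-like cells in tags 1, 2 and 3, and its part in those ratios was not tested.

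Related genes showed which groups moved with tag 1 in NK-like cells. In a list of other early transcription factors that includes Klf6, Ier2 and Nr4a3, 10 of the 10 genes compared were highest in tag 1, with a median ratio of 1.35. In a list of early feedback and RNA decay genes that includes Zfp36, Nfkbia and Btg2, which limit the response, 14 of 15 were highest there, with a median of 1.58. In the list called heat shock and dissociation genes, 2 of 9 were highest in tag 1, with a median of 1.06. The genes of this list named below are heat shock and chaperone genes. The part of dissociation in the tag 1 difference was not tested. Of the kinases and factors upstream of the members, 1 of 13 was highest in tag 1, with a median of 0.960, and of the NK activation cytokines 4 of 8 were, with a median of 1.05. Median mitochondrial shares were 1.38%, 1.41% and 1.36% in the single-tag cells of tags 1, 2 and 3. Because each tag is compared with itself in the tests below, a shift that multiplies a gene equally in all classes of a tag cancels, and each result that rests on tag 1 is also given without it.

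**Figure D1:**
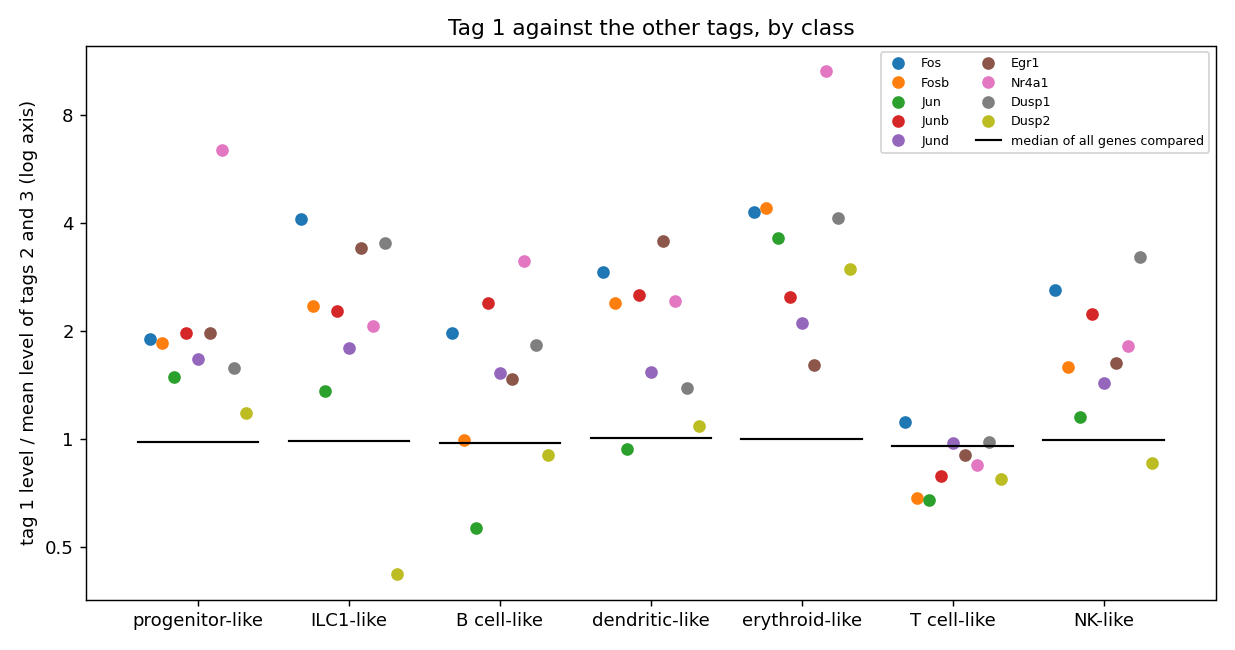
Ratio of the level in tag 1 to the mean level of tags 2 and 3 (log axis) for each of the 9 members (points) in 7 cell classes, with the median ratio of all genes compared in that class (line). Most points lie above the line in every class except the T cell-like one, and Dusp2 lies at or below 1.18 everywhere but in erythroid-like cells.

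The promoters of the 4 members with the highest tag 1 ratios in NK-like cells are shown because these members moved together. Each run is the 250 bases before the transcription start in RefSeq's annotation of GRCm38.p6, read 5′ to 3′ on the gene's strand: chr12:85473640-85473889 for Fos (plus strand), chr8:84978749-84978998 for Junb (minus strand), chr15:101266596-101266845 for Nr4a1 (plus strand) and chr17:26508473-26508722 for Dusp1 (minus strand). Capitals mark matches on either strand to TGACG, the core of the cyclic AMP response element bound by the CREB and ATF factors, to the full element TGACGTCA that contains it, and to the ETS core CCGGAA.
Fos: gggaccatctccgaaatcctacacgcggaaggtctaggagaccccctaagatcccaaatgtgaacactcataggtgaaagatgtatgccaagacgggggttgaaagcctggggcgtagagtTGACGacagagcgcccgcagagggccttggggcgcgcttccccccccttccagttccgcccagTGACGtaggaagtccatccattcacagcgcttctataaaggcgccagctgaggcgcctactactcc
Junb: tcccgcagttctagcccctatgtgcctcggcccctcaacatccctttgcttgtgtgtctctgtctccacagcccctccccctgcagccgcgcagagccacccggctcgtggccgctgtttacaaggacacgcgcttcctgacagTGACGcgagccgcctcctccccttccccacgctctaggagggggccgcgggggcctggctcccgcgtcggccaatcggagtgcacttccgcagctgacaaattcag
Nr4a1: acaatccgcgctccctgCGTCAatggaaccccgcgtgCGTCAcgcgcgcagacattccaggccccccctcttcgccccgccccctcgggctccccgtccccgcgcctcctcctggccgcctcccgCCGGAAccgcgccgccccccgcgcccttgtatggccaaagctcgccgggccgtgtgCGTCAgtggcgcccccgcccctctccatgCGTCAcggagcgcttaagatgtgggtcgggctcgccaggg
Dusp1: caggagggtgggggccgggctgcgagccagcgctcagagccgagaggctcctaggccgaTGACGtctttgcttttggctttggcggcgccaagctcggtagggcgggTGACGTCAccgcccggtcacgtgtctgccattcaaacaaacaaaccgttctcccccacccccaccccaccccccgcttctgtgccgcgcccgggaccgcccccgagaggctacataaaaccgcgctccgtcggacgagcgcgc

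The core TGACG, on either strand, was present in 5 of the 8 members with a window (Dusp1, Fos, Fosb, Junb and Nr4a1) and in 17.8% of 32851 windows of the same length genome-wide. Nr4a1 held 4 of them, Fos held 2, at bases -129 to -125 and -66 to -62 from the start, and Dusp1 held the full element at -143 to -136, a motif in 1.55% of windows, which overlaps 2 of its 3 cores. Jun, Jund and Dusp2 had none of the motifs searched, and the window of Jund precedes a RefSeq start 1210 bases before its gene model in the GRCm38 annotation, so it does not adjoin that model's first base. The AP-1 motif TGANTCA (in 6.75% of windows), the CArG box of serum response factor (1.47%) and the EGR motif GCGTGGGCG (0.536%) matched in no member window, and CCGGAA (12.03%) matched in Nr4a1 alone. A match is a string of letters and not a binding site, and a motif not found here may lie outside these 250 bases.

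Detection in NK-like cells at 2400 UMIs was broad for some members and rare for others. Jund was seen in 82.9% of 7677 NK-like cells, Junb in 79.1%, Dusp2 in 56.7%, Fos in 42.9%, Jun in 39.8%, Dusp1 in 26.4%, Fosb in 17.4%, Nr4a1 in 9.89% and Egr1 in 3.78% (exact 95% binomial interval 3.36% to 4.23%; all intervals given cover counting error only). The 3 tags differed: Fos was seen in 62.7% of NK-like cells of tag 1, 37.8% of tag 2 and 28.3% of tag 3.

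**Figure D2:**
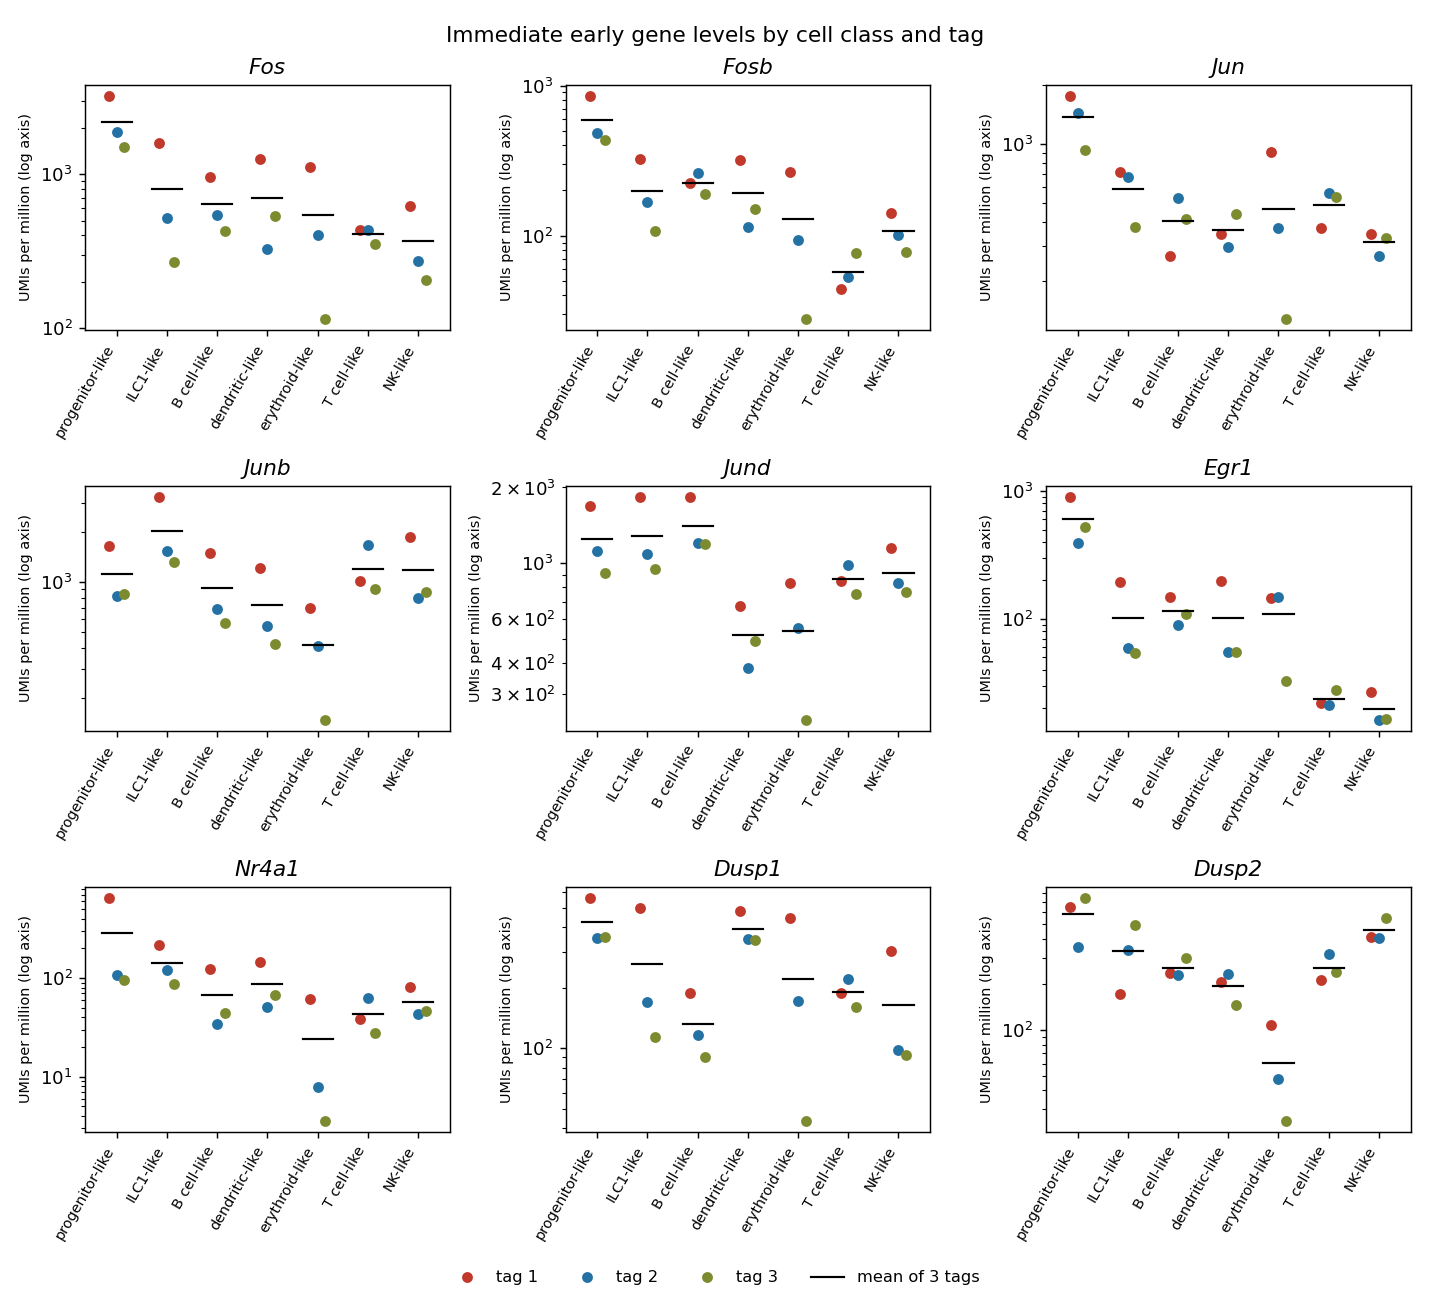
Level of each member (CPM, log axis) in 7 cell classes, with a point for each of the 3 tags and a line at their mean. Before scaling factors, progenitor-like cells have the highest mean for 7 of the 9 members. Tag 1 is the highest point in most classes for all members but Dusp2.

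Progenitor-like cells were 54 cells gated on Kit, Cd34, Meis1, Mycn and Hlf. In CPM before scaling factors, they had the highest mean of all tested classes for Fos, Fosb, Jun, Egr1, Nr4a1, Dusp1 and Dusp2. For Dusp1 the log2 fold against NK-like cells, after scaling, was larger in conventional dendritic cell-like cells (1.91) than in progenitor-like cells (1.65). Progenitor-like cells were compared with NK-like cells in a fit added after seeing the data, since they numbered 18, 20 and 16 cells in the 3 tags. Here and below, UMIs summed per tag and class were compared with edgeR's quasi-likelihood test, with the tag as a block and p adjusted by the Benjamini-Hochberg method over all genes tested. CPM are given before scaling factors and log2 folds after them, so a fold can differ from the ratio of the CPM. Overlap of groups and the order of means are read from the CPM and can change with scaling. Of the 9 members, 7 were higher in progenitor-like cells and none was lower at an adjusted p under 0.05, where 23.6% of the 8736 genes tested were called higher and 18.1% lower. The median log2 fold was 2.16 over the members and 0.051 over all genes tested. Without the tag as a block 6 members were called, and without tag 1 also 6.

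Egr1 had 899.5, 393 and 519 CPM in progenitor-like cells of tags 1, 2 and 3, against 26.7, 16.2 and 16.4 CPM in NK-like cells (log2 fold 5.01 ± 0.27 SE, adjusted p = 9.7e-17). The lowest progenitor-like tag was above the highest NK-like tag, and also above every tag of the other tested classes. At 2400 UMIs, Egr1 was seen in 61.1% of 54 progenitor-like cells and 3.78% of 7677 NK-like cells. Fos had 3238, 1877 and 1517 CPM in progenitor-like cells, against 623, 274 and 205 CPM in NK-like cells (log2 fold 2.81 ± 0.27 SE, adjusted p = 1.5e-10). Fosb had 850.5, 484 and 433 CPM, against 142, 100.5 and 77.97 CPM (log2 fold 2.55 ± 0.28 SE, adjusted p = 3.1e-09). Neither gene's groups overlapped.

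Jun, the main AP-1 partner of Fos, had 1755, 1430.5 and 926 CPM in progenitor-like cells, against 344, 266 and 331 CPM in NK-like cells (log2 fold 2.21 ± 0.32 SE, adjusted p = 6.7e-07). Nr4a1 had 654, 107 and 96.7 CPM, against 81.1, 42.9 and 46.4 CPM (log2 fold 2.16 ± 0.30 SE, adjusted p = 2.6e-07), so tag 1 carried most of its mean, and without tag 1 its log2 fold was 1.18 (adjusted p = 0.0023). Dusp1, which dephosphorylates the p38 and JNK kinases, had 562, 356 and 356 CPM, against 305, 97.5 and 92.4 CPM (log2 fold 1.65 ± 0.29 SE, adjusted p = 2.2e-05). The smallest called difference was that of Jund, at 1696, 1120.4 and 911 CPM against 1149.6, 833 and 766 CPM (log2 fold 0.53 ± 0.16 SE, adjusted p = 0.008), and it was no longer called without tag 1, at 0.32 (adjusted p = 0.22). Junb (log2 fold 0.049 ± 0.21 SE, adjusted p = 0.88) and Dusp2 (0.46 ± 0.27 SE, adjusted p = 0.18) did not pass the test.

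Other genes of the response were divided in progenitor-like cells. Among other early transcription factors, 8 of 20 were higher and 5 lower, with Atf3 at 3.33 ± 0.53 and Bhlhe40 at -4.29 ± 0.45 (log2 fold ± SE). Of 24 early feedback genes, 12 were higher and 3 lower, led by Ier3, a survival gene of the NF-kappaB response, at 7.51 ± 0.29. Heat shock and dissociation genes were higher in 5 of 10 and lower in none, with Hsp90ab1 at 1.58 ± 0.097. The upstream kinases and factors were split, with 2 of 18 higher and 2 lower, and of the NK activation cytokines 2 of 10 were higher and 5 lower.

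ILC1-like cells, the tissue-resident relatives of NK cells, held more of several members than NK-like cells. Of the 9 members, 4 were higher and none lower, where 6.85% of 9170 genes were called higher and 7.03% lower. Over the members the median log2 fold was 0.79, beside -0.047 over all genes. Egr1 had 193, 59.5 and 53.8 CPM in ILC1-like cells of tags 1, 2 and 3, against 26.7, 16.2 and 16.4 CPM in NK-like cells (log2 fold 2.20 ± 0.37 SE, adjusted p = 5.9e-05), and the groups did not overlap. Nr4a1 had 217, 122 and 87.4 CPM, against 81.1, 42.9 and 46.4 CPM (log2 fold 1.26 ± 0.28 SE, adjusted p = 0.0018). Junb had 3253, 1537 and 1317 CPM, against 1871, 802 and 871 CPM (log2 fold 0.74 ± 0.15 SE, adjusted p = 5.1e-04), and its groups overlapped across tags although ILC1-like cells were higher within each tag.

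Fos had 1609.6, 516 and 269 CPM in ILC1-like cells, against 623, 274 and 205 CPM in NK-like cells (log2 fold 0.92 ± 0.25 SE, adjusted p = 0.011), and it was not called without tag 1, at 0.65 (adjusted p = 0.2). Fosb (0.79 ± 0.31, adjusted p = 0.092), Jun (0.85 ± 0.33, 0.09) and Jund (0.43 ± 0.16, 0.067) were higher in all 3 tags without passing the test, given as log2 fold ± SE with the adjusted p. Dusp1 (0.62 ± 0.29, adjusted p = 0.16) and Dusp2 (-0.43 ± 0.28, 0.35) did not pass either. The count was less settled than in other classes: 1 member was called without the tag as a block, 9 without tag 3, 3 without tag 1 and 7 when every gene with a UMI was kept. Over all genes, 425 to 581 were called higher and 385 to 574 lower with 1 tag left out, against 628 and 645 with all tags. Early feedback genes were higher in 9 of 24 and lower in none, with Gadd45b at 2.19 ± 0.32 and Zfp36l1, a messenger RNA decay factor, at 1.61 ± 0.18. Among other early transcription factors 3 of 20 were higher and 2 lower, with Klf4 at 1.91 ± 0.26, and heat shock and dissociation genes were higher in 3 of 11. None of the 18 upstream genes was called in either direction. Of the 10 NK activation cytokines 4 were higher and 2 lower.

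B cell-like cells were higher than NK-like cells for Fos, Fosb, Jund and Egr1 and lower for no member, where 18.6% of 9171 genes were called higher and 20.2% lower. The median log2 fold over the members was 0.58 and that over all genes -0.041. Egr1, which follows B cell receptor signalling, had 147, 89.9 and 109.5 CPM in B cell-like cells, against 26.7, 16.2 and 16.4 CPM in NK-like cells (log2 fold 2.82 ± 0.27 SE, adjusted p = 6.0e-10). Fosb had 225, 262 and 191 CPM, against 142, 100.5 and 77.97 CPM (log2 fold 1.34 ± 0.26 SE, adjusted p = 1.2e-04), and Jund had 1835, 1205 and 1190.4 CPM, against 1149.6, 833 and 766 CPM (log2 fold 0.81 ± 0.15 SE, adjusted p = 6.3e-05). All 3 were without overlap between the groups.

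Fos had 957, 542 and 427 CPM in B cell-like cells, against 623, 274 and 205 CPM in NK-like cells (log2 fold 1.10 ± 0.24 SE, adjusted p = 4.3e-04), and its groups overlapped. For Jun and Nr4a1, tag 1 went against the other tags in CPM before scaling factors. Jun had 266, 527 and 414 CPM in B cell-like cells, against 344, 266 and 331 CPM in NK-like cells (log2 fold 0.58 ± 0.32 SE, adjusted p = 0.16). Without tag 1 it was called, at 0.81 (adjusted p = 0.017), and so was Dusp2, at -0.64 (adjusted p = 0.041), which had not passed with all tags (log2 fold -0.60 ± 0.26 SE, adjusted p = 0.069). Nr4a1 had 124, 34.01 and 44.9 CPM in B cell-like cells, against 81.1, 42.9 and 46.4 CPM in NK-like cells (log2 fold 0.37 ± 0.25 SE, adjusted p = 0.28). Before scaling factors it was thus higher in B cell-like cells of tag 1 alone. After scaling, its log2 fold without tag 1 was 0.068 (adjusted p = 0.89). Junb did not pass the test (-0.20 ± 0.15, adjusted p = 0.3). Dusp1 averaged 132 ± 51.2 CPM in B cell-like cells and 165 ± 121 CPM in NK-like cells (SD, n = 3 tags each), with a log2 fold near 0 whose sign depended on the scaling (0.024 ± 0.27, adjusted p = 0.96; -0.18 without scaling factors). Of the other early transcription factors 6 of 20 were higher and 8 lower, with Egr3 at 4.82 ± 0.41 and Nr4a2 at -4.26 ± 0.33. Of 24 early feedback genes, 10 were higher and 9 lower. The heat shock and dissociation genes were higher in 2 of 11, the upstream genes higher in 2 of 18 and lower in 7, and the NK activation cytokines lower in 8 of 10.

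Conventional dendritic cell-like cells were called in both directions: Fos, Fosb, Egr1, Nr4a1 and Dusp1 were higher than in NK-like cells, and Junb, Jund and Dusp2 were lower. The background was wide, with 27.6% of 9169 genes called higher and 26% lower, so 5 and 3 of 9 are not read as a high share. The members' median log2 fold was 0.95 and that of all genes -0.044. Dusp1 had 482, 350.0 and 344 CPM in dendritic cell-like cells, against 305, 97.5 and 92.4 CPM in NK-like cells (log2 fold 1.91 ± 0.25 SE, adjusted p = 2.0e-07). The phosphatase Dusp2 went the other way, with 208, 234 and 147 CPM against 410.0, 405 and 549 CPM (log2 fold -0.79 ± 0.27 SE, adjusted p = 0.013). Neither phosphatase's groups overlapped.

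Egr1 had 197, 54.97 and 55.2 CPM in dendritic cell-like cells, against 26.7, 16.2 and 16.4 CPM in NK-like cells (log2 fold 2.63 ± 0.28 SE, adjusted p = 3.4e-09). Fos had 1253, 326 and 531 CPM, against 623, 274 and 205 CPM (log2 fold 1.34 ± 0.24 SE, adjusted p = 2.7e-05), and Fosb had 317, 114 and 149.5 CPM, against 142, 100.5 and 77.97 CPM (log2 fold 1.18 ± 0.27 SE, adjusted p = 4.2e-04). Within each tag the dendritic cell-like value was the higher one for these 3 genes. Nr4a1 had 145, 51.6 and 67.9 CPM, against 81.1, 42.9 and 46.4 CPM (log2 fold 0.95 ± 0.24 SE, adjusted p = 0.0017). The lower calls of Junb (log2 fold -0.35 ± 0.15 SE, adjusted p = 0.044) and Jund (log2 fold -0.43 ± 0.15 SE, adjusted p = 0.02) were lost without tag 1, at -0.41 (adjusted p = 0.12) and -0.45 (adjusted p = 0.081), while Jun, not called with all tags (log2 fold 0.63 ± 0.32 SE, adjusted p = 0.1), passed without it, at 0.71 (adjusted p = 0.026). Without the tag as a block 4 members were called, and by DESeq2 5. Of the other early transcription factors 10 of 20 were higher and 7 lower, with Atf3, a stress-induced partner of AP-1 proteins, at 4.23 ± 0.32 and Rel at 3.37 ± 0.16. Early feedback genes were higher in 11 of 24 and lower in 5, with Gadd45b at 4.59 ± 0.25, and heat shock and dissociation genes were higher in 5 of 11 and lower in 3, with Hspa1b at 4.20 ± 0.34. Upstream genes were higher in 4 of 18 and lower in 3, and NK activation cytokines higher in 2 of 10 and lower in 7.

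In erythroid-like cells Junb, Jund, Nr4a1 and Dusp2 were lower than in NK-like cells and Fos, Jun and Egr1 were higher. Here 34.9% of 9168 genes were called higher and 38.4% lower, so 3 and 4 of 9 are near the background. Their median log2 fold was 0.28, where all genes had -0.15. Dusp2, an immune-cell phosphatase, had 108, 47.5 and 25.2 CPM in erythroid-like cells, against 410.0, 405 and 549 CPM in NK-like cells (log2 fold -2.73 ± 0.31 SE, adjusted p = 8.3e-09). Junb had 698, 411 and 147 CPM, against 1871, 802 and 871 CPM (log2 fold -1.28 ± 0.15 SE, adjusted p = 1.5e-08), and Nr4a1 had 61.2, 7.91 and 3.60 CPM, against 81.1, 42.9 and 46.4 CPM (log2 fold -1.35 ± 0.32 SE, adjusted p = 4.7e-04). Before scaling factors, the highest erythroid-like tag was below the lowest NK-like tag for Dusp2 and Junb. For Nr4a1 the groups overlapped through tag 1. Jund had 829.8, 549.7 and 238 CPM, against 1149.6, 833 and 766 CPM (log2 fold -0.53 ± 0.16 SE, adjusted p = 0.0031).

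Egr1 had 146, 148 and 32.8 CPM in erythroid-like cells, against 26.7, 16.2 and 16.4 CPM in NK-like cells (log2 fold 2.58 ± 0.28 SE, adjusted p = 2.5e-09), and stayed called without tag 1, at 2.49 (adjusted p = 3.8e-08). Fos had 1115, 405 and 114 CPM, against 623, 274 and 205 CPM (log2 fold 0.63 ± 0.24 SE, adjusted p = 0.022), and Jun had 904, 369.7 and 127 CPM, against 344, 266 and 331 CPM (log2 fold 0.74 ± 0.33 SE, adjusted p = 0.044). Both calls rested on tags 1 and 2, since tag 3 was lower in erythroid-like cells, and without tag 1 neither passed, at 0.29 (adjusted p = 0.37) for Fos and -0.071 (adjusted p = 0.83) for Jun. Fosb (0.28 ± 0.28, adjusted p = 0.37) and Dusp1 (0.56 ± 0.26, 0.057) did not pass. Without the tag as a block 4 members were called, and by DESeq2 also 4. The erythroid-like class held 31, 20 and 76 cells in the 3 tags at a median of 27255 UMIs, and its tag 3 cells carried most of the haemoglobin transcripts given above. Of the other early transcription factors 12 of 20 were lower and 3 higher, with Klf2 at -5.72 ± 0.24, and of 24 early feedback genes 15 were lower and 3 higher, with Socs3 at -6.46 ± 0.60. Heat shock and dissociation genes were higher in 6 of 11 and lower in 2, with Hspe1 at 2.80 ± 0.14, upstream genes higher in 3 of 18 and lower in 10, and NK activation cytokines lower in 9 of 10.

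For T cell-like cells no member was called against NK-like cells. None of the 9 passed edgeR's quasi-likelihood test, none passed in DESeq2, and 2 had an unadjusted p under 0.05, where 9.72% of 8733 genes were called higher and 10.2% lower. The members had a median log2 fold of 0.34, where all genes had -0.084. The class entered a fit added after seeing the data because tag 2 held 18 cells. Jun, the nearest to the threshold, had 370.1, 559 and 536 CPM in T cell-like cells, against 344, 266 and 331 CPM in NK-like cells (log2 fold 0.88 ± 0.34 SE, adjusted p = 0.061), and was higher in all 3 tags. Egr1 had 22.1, 21.1 and 27.9 CPM, against 26.7, 16.2 and 16.4 CPM (log2 fold 0.65 ± 0.59 SE, adjusted p = 0.52), from 17 UMIs in all T cell-like cells. Its log2 fold had a 95% interval of -0.50 to 1.80. In the other tested classes Egr1 had log2 folds of 2.20 and more, and the ILC1-like 95% interval of 1.48 to 2.92 overlapped the T cell-like one. Egr1 was not tested between T cell-like cells and those classes. Dusp2 had 215, 316 and 241 CPM, against 410.0, 405 and 549 CPM (log2 fold -0.66 ± 0.31 SE, adjusted p = 0.14). Fosb (-0.43 ± 0.42, adjusted p = 0.57), Jund (0.14 ± 0.17, 0.64) and Nr4a1 (-0.43 ± 0.48, 0.62) did not pass the same test, as log2 fold ± SE with the adjusted p.

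This comparison depended on tag 1. Without tag 1, 4 members were called higher in T cell-like cells: Dusp1 at 1.10 (adjusted p = 0.0091), Jun at 1.00 (adjusted p = 0.0083), Fos at 0.85 (adjusted p = 0.042) and Junb at 0.63 (adjusted p = 0.043). Over all genes, 564 were called higher without tag 1 and 849 with all tags. With all 3 tags, Fos had 436, 432 and 350.3 CPM in T cell-like cells, against 623, 274 and 205 CPM in NK-like cells, and Dusp1 had 188, 222 and 159.9 CPM, against 305, 97.5 and 92.4 CPM. T cell-like cells were thus above NK-like cells in tags 2 and 3 and below them in tag 1 for both genes. Among the other early transcription factors 1 of 20 was higher (Klf4, at 1.26 ± 0.33) and 2 lower, early feedback genes were higher in 5 of 24 and lower in 7, and the activation marker Cd69 was at 1.99 ± 0.28. Heat shock and dissociation genes were higher in 3 of 10, upstream genes lower in 2 of 18, and NK activation cytokines higher in 1 of 10 and lower in 7.

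**Figure D3:**
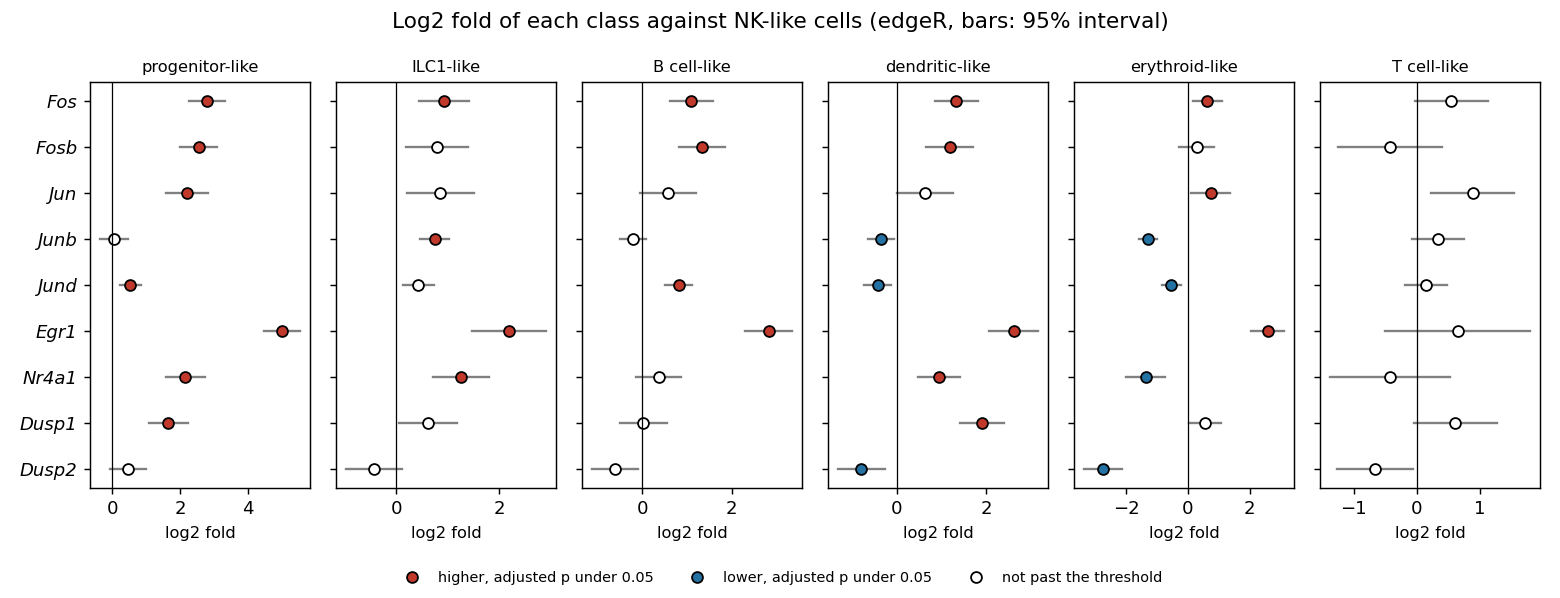
Log2 fold of each member in 6 cell classes against NK-like cells (points) with bars for the 95% interval. Filled points passed an adjusted p of 0.05 in edgeR's quasi-likelihood test, red for higher and blue for lower, and Fos and Egr1 are filled red in every class but the T cell-like one.

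Fos and Egr1 were called higher in all 5 of the progenitor-like, ILC1-like, B cell-like, conventional dendritic cell-like and erythroid-like classes. Without tag 1, Egr1 was still called in all 5, and Fos in the progenitor-like, B cell-like and dendritic cell-like ones. The order of class means for Egr1 began with progenitor-like cells at 604 ± 264 CPM (SD, n = 3 tags), whose range did not overlap that of the next class. B cell-like (116 ± 29.1), erythroid-like (109 ± 65.98), dendritic cell-like (102 ± 82.01) and ILC1-like cells (102 ± 78.6) followed without separation from their neighbours, and all their tags were above those of T cell-like (23.7 ± 3.69) and NK-like cells (19.8 ± 5.99), which overlapped each other. For Fosb and Jun the progenitor-like range also stood clear of the next class. For Fosb the lowest NK-like tag (77.97 CPM) was just above the highest T cell-like tag (76.2 CPM), before scaling factors. The T cell-like class held 43 Fosb UMIs, and edgeR's quasi-likelihood test did not call this difference (log2 fold -0.43 ± 0.42 SE, adjusted p = 0.57). For Dusp2 the erythroid-like range lay below that of dendritic cell-like cells. All other neighbours in the orders of the 9 members had overlapping ranges. The calls depended on scaling in number: without scaling factors, the split of genes called higher and lower was 1334 and 2749 in B cell-like cells (1709 and 1853 with them), 1782 and 4164 in dendritic cell-like cells (2531 and 2385), 2528 and 4435 in erythroid-like cells (3201 and 3517) and 646 and 1456 in T cell-like cells (849 and 894). The median of all genes moved to -0.24, -0.45, -0.55 and -0.31 in those 4 classes, and log2 folds here are with scaling factors.

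Classes too small for a test are described by their pooled level with an exact Poisson interval, which covers counting error and not the spread between tags. Mural or fibroblast-like cells (92 cells, 63 of them in tag 2) had Fos at 2178 CPM (95% interval 2071 to 2289), Jun at 1785 CPM (95% interval 1689 to 1886) and Egr1 at 1181 CPM (95% interval 1103 to 1263). Their Dusp2 was at 16.7 CPM (95% interval 8.64 to 29.2), from 12 UMIs, or 3.73% of the NK-like level, where Gzma was at 1.97% of its NK-like level in the same cells. Monocyte or macrophage-like cells (68 cells) had Fos at 1432 CPM (95% interval 1320.3 to 1549.9), Dusp1 at 1033 CPM (95% interval 938 to 1134) and Nr4a1 at 371 CPM (95% interval 315 to 433). Both classes held 5 or more of the 9 members in most cells at 2400 UMIs: 79.1% of mural or fibroblast-like and 59.7% of monocyte or macrophage-like cells, against 26.2% of NK-like cells. By tag, Egr1 in mural or fibroblast-like cells had 297, 1271 and 1084 CPM, and Nr4a1 in monocyte or macrophage-like cells had 577, 319 and 287 CPM. Neutrophil-like cells, 14 in number, had Dusp1 at 3099 CPM (95% interval 2578 to 3695). Platelet or megakaryocyte-like cells (4, 42 and 7 cells in tags 1, 2 and 3) had Fos at 2760.3, 153 and 1234 CPM by tag, from 9 of the 53 cells, so a few cells carried its level. Their Dusp2 was at 92.9 CPM (95% interval 54.1 to 149), with UMIs in 10 cells. In the 14 plasma cell-like cells Dusp2 had 0 UMIs, and the 95% interval reaches up to 14.5 CPM.

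Within NK-like cells, members were compared between cells high in Ccl3 plus Ccl4 transcripts and cells with none left after thinning. These genes encode inflammatory chemokines that NK cells release on activation. Cells were thinned to 2400 UMIs and split into none (0 UMIs, 2809 cells), low (1 or 2, 2745 cells) and high (3 or more, 2123 cells), with median depths before thinning of 4253, 4139 and 4272 UMIs. Thinning served only to sort the cells, and all their UMIs were summed for the tests. Before thinning the none cells held Ccl3 at 44.4 and Ccl4 at 79.4 CPM, against 635 and 1995 CPM in high cells, so they were low in both rather than without them. The high class took 29.2%, 21.8% and 33.5% of the NK-like cells of tags 1, 2 and 3. In the high class 8 of the 9 members were higher than in the none class and none was lower, where 2.06% of 10949 genes were called higher (226 genes) and 1.31% lower (143 genes). The median log2 fold was 0.39 over the members and -0.0028 over all genes. Without scaling factors the split over all genes was 181 higher and 188 lower, and the same number of members was called.

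Egr1 had 30.9, 32.5 and 22.8 CPM in high cells of tags 1, 2 and 3, against 22.9, 9.77 and 13.4 CPM in none cells (log2 fold 0.99 ± 0.18 SE, adjusted p = 3.4e-04). Nr4a1 had 105, 62.8 and 60.4 CPM in high cells, against 73.6, 36.2 and 42.5 CPM in none cells (log2 fold 0.62 ± 0.077 SE, adjusted p = 1.1e-06). Jun had 379, 376 and 404 CPM in high cells, against 326, 214 and 278 CPM in none cells (log2 fold 0.55 ± 0.062 SE, adjusted p = 2.6e-07). The groups overlapped for Egr1 and Nr4a1 but not for Jun, and within each tag the high cells were above the none cells for all 3. Fos had 676, 359 and 249 CPM, against 574, 247 and 167 CPM (log2 fold 0.45 ± 0.056 SE, adjusted p = 1.3e-06), and Dusp2 had 470.4, 451 and 613 CPM, against 347, 363 and 478 CPM (log2 fold 0.39 ± 0.04 SE, adjusted p = 3.6e-08). Dusp1 (0.35 ± 0.058, adjusted p = 1.5e-04), Junb (0.32 ± 0.034, 7.3e-08) and Jund (0.27 ± 0.034, 1.6e-06) were higher by less, as log2 fold ± SE with the adjusted p. The folds were small beside the gap between tags: Junb had 2098, 941 and 938 CPM in high cells, so high cells of tags 2 and 3 stayed below the 1708 CPM of none cells in tag 1.

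Fosb was the exception, with 144, 119.6 and 73.7 CPM in high cells, against 142, 88.1 and 81.8 CPM in none cells (log2 fold 0.14 ± 0.075 SE, adjusted p = 0.4), and tag 3 went the other way. In the low class most members lay between the others: Fos had 329 ± 216 CPM in none, 368 ± 242 CPM in low and 428 ± 222 CPM in high cells (SD, n = 3 tags each), and Dusp2 had 396 ± 71.1, 454 ± 65.5 and 512 ± 88.5 CPM. Nr4a1 did not differ in step, at 50.8 ± 20.03 CPM in none, 49.5 ± 17.9 CPM in low and 76.1 ± 25.1 CPM in high cells. The calls need the tag as a block, since without it no member was called (26 genes higher and 8 lower in all). All 8 stayed called without tag 1, with Egr1 at 1.35 (adjusted p = 1.5e-07) and Jun at 0.71 (adjusted p = 1.1e-18).

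**Figure D4:**
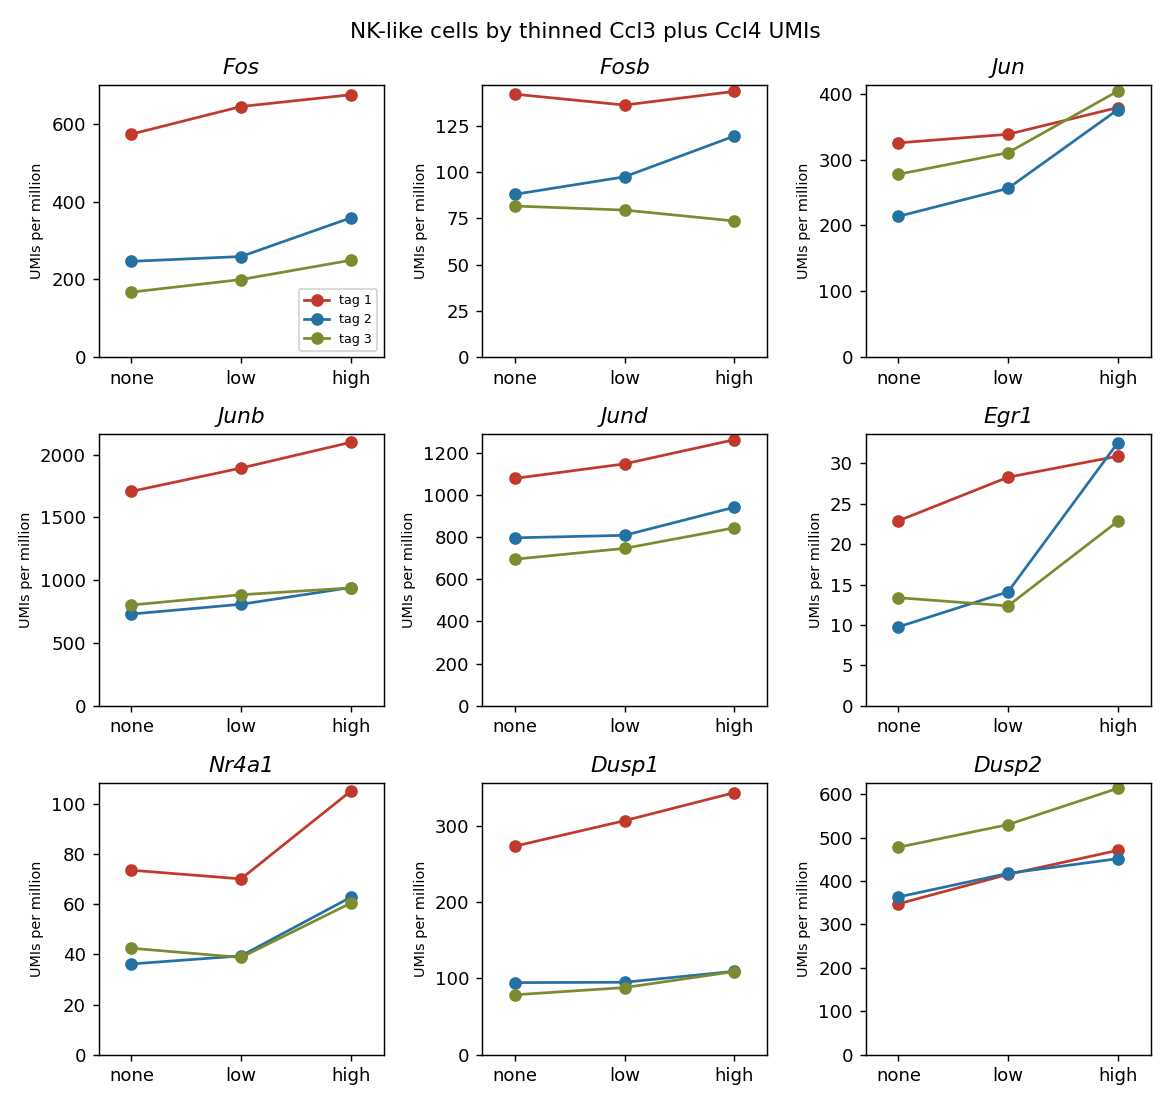
Level of each member (CPM) in NK-like cells with none, low or high thinned Ccl3 plus Ccl4 UMIs, with 1 line for each of the 3 tags. The lines of every member except Fosb end higher in the high class than they begin, and tag 1 keeps its distance for Fos, Junb, Jund and Dusp1.

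Other genes of the early response were higher in the same cells. Of 21 other early transcription factors 9 were higher and none lower: Egr3 averaged 7.14 ± 3.07 CPM in high and 0.352 ± 0.0816 CPM in none cells (SD, n = 3 tags each; log2 fold 4.34 ± 0.49 SE), Egr2 was at 2.34 ± 0.40 and Nr4a3, a relative of Nr4a1, at 0.85 ± 0.10. Early feedback genes were higher in 15 of 23 and lower in none, with Gadd45b at 1.09 ± 0.14, the NF-kappaB inhibitor Nfkbid at 0.87 ± 0.12 and Rgs1 at 0.62 ± 0.062. Heat shock and dissociation genes were higher in 3 of 11, by at most 0.23 ± 0.047 for Hspa5, and none of 20 upstream kinases and factors was called. With Ccl3 and Ccl4 left out, 6 of 8 NK activation cytokines were higher, with Tnf at 2.00 ± 0.24, the chemokine Xcl1 at 1.49 ± 0.059 and Ifng at 0.98 ± 0.081. By size and agreement of all tags, the genes furthest up were Egr3, Egr2, Gm10634, Tnf, P2rx7, Hic1, Cxcl10, Dll1, Asb2 and Id3, at log2 folds of 1.52 and above. Those furthest down were Cenpf, Igkc, Kif14, Aspm, Kif4, Hmmr, Tbc1d4, Ube2c, Treml2 and Aurkb, at -1.06 to -1.52, and Cenpf, Kif14, Aspm, Kif4, Hmmr, Ube2c and Aurkb among them encode mitotic proteins. Summed markers of other cell types had overlapping ranges in high and none cells for 9 of the 11 marker lists: B cell markers had 25.4 to 25.98 CPM in high and 20.5 to 27.5 CPM in none cells, and ILC1 markers 230 to 296 CPM in high and 254 to 333 CPM in none cells. Progenitor markers had 239 to 243 CPM in high and 254 to 356 CPM in none cells, and plasmacytoid dendritic cell markers had 364 to 464 CPM in high and 272 to 335 CPM in none cells, and the part of these markers in the result was not tested.

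NK cells lose Cd27 and gain Itgam (CD11b) as they mature, and 983 NK-like cells with a thinned UMI of Cd27 only were compared with 2554 holding Itgam only. The other NK-like cells held both transcripts (412 cells) or neither (3728 cells, 48.6%) and were left out of this comparison. A transcript not seen after thinning may still be present, so the split sorts cells by detection and not by a measured stage. Cd27-only cells were higher for Fos, Fosb, Jun, Junb, Egr1 and Nr4a1 and lower for Dusp2. Over all genes, 8.72% of 10603 were called higher (925 genes) and 6.02% lower (638 genes). The median log2 fold was 0.32 over the members and -0.0017 over all genes. Fosb had 185, 118 and 127 CPM in Cd27-only cells of tags 1, 2 and 3, against 125, 88.1 and 54.9 CPM in Itgam-only cells (log2 fold 0.70 ± 0.088 SE, adjusted p = 6.7e-09). Jun had 369.5, 316 and 410.3 CPM, against 287, 218 and 263 CPM (log2 fold 0.56 ± 0.053 SE, adjusted p = 1.2e-12), and its groups did not overlap. Dusp2 had 312, 302 and 388 CPM, against 484, 495 and 683 CPM (log2 fold -0.67 ± 0.056 SE, adjusted p = 1.9e-14), also without overlap, so the phosphatase was lower where 6 transcription factor genes were higher.

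Nr4a1 had 102, 58.97 and 53.3 CPM in Cd27-only cells, against 68.1, 25.1 and 43.5 CPM in Itgam-only cells (log2 fold 0.75 ± 0.12 SE, adjusted p = 1.4e-06), and Egr1 had 35.1, 17.3 and 25.98 CPM, against 23.4, 10.96 and 11.3 CPM (log2 fold 0.81 ± 0.18 SE, adjusted p = 6.7e-04). Fos (log2 fold 0.32 ± 0.054 SE, adjusted p = 7.9e-06) and Junb (log2 fold 0.19 ± 0.041 SE, adjusted p = 5.8e-04) differed by less than 1.5 times. Jund (0.067 ± 0.039, adjusted p = 0.3) and Dusp1 (-0.11 ± 0.074, 0.39) did not pass, and Dusp1 turned to 0.11 without tag 1. Median depth before thinning was 5071 UMIs for the Cd27-only class and 3822 UMIs for the Itgam-only class, and its part in the result was not tested. The 412 cells with both transcripts had a mean between the others for Dusp2, at 466 ± 177 CPM beside 334 ± 47.2 CPM in Cd27-only and 554 ± 112 CPM in Itgam-only cells. Without the tag as a block 2 members were called, without tag 1 all 7, and without tag 2 all but Junb (0.12, adjusted p = 0.18). The random thinning that sorts the cells moved the smaller calls: in 2 further draws, added after seeing the data, all 7 were called, with adjusted p up to 0.036 for Egr1 and 0.04 for Junb and log2 folds of Fosb at 0.52 and 0.57. In another draw on cells with at most 5% mitochondrial UMIs, Egr1 (0.50, adjusted p = 0.12) and Junb (0.14, adjusted p = 0.051) were not called, while that limit alone, with the draw kept, left all 7 called. Without scaling factors 778 genes were higher and 930 lower, with 7 members called.

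Other early transcription factors were higher in 6 of 20 and lower in 2 in Cd27-only cells, with Klf4 at 1.27 ± 0.16, Myc at 1.11 ± 0.17 and Fosl2, another Fos-family gene, at 0.76 ± 0.12. Early feedback genes were higher in 10 of 23 and lower in 2, with Cd69 at 0.98 ± 0.071 and Socs3 at 0.94 ± 0.13. Heat shock and dissociation genes were higher in 4 of 11, with Hspe1 at 0.35 ± 0.056, and of 20 upstream genes 1 was lower (Elk3, at -0.33 ± 0.068). The NK activation cytokines were higher in 6 of 10 and lower in 2, with Tnf at 2.86 ± 0.35 and Xcl1 at 1.69 ± 0.058.

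**Figure D5:**
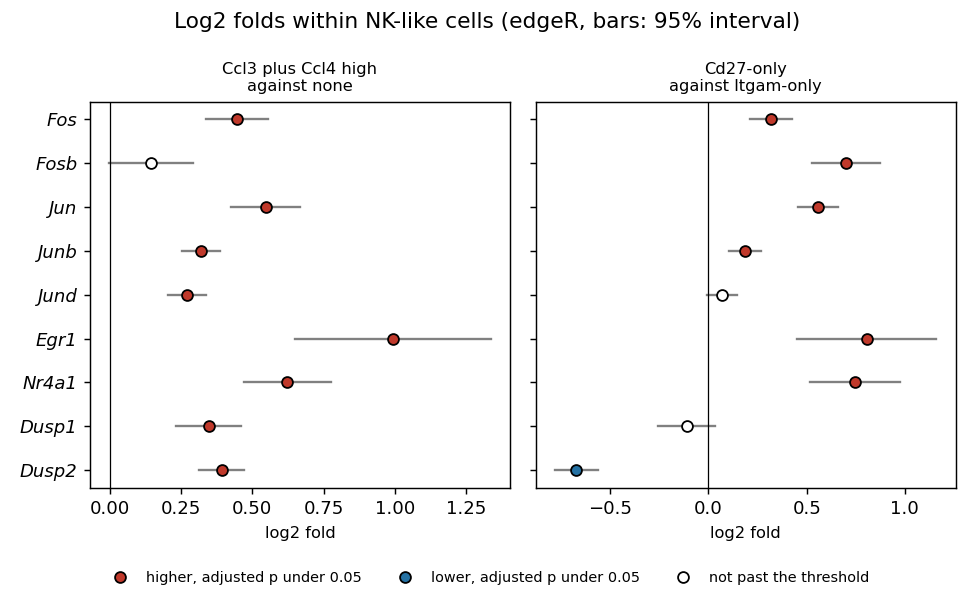
Log2 fold of each member within NK-like cells (points) with bars for the 95% interval, for Ccl3 plus Ccl4 high against none cells and for Cd27-only against Itgam-only cells. Filled points passed an adjusted p of 0.05, red for higher and blue for lower; Dusp2 is filled red in the first panel and blue in the second.

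Members were found in the same NK-like cells slightly more often than their separate shares give. Over the 36 pairs of members in 7677 NK-like cells at 2400 UMIs, the share of cells with both genes over the product of the shares, computed within tags, had a median of 1.05, and 33 pairs were above 1, 28 of them in every tag. The medians of tags 1, 2 and 3 were 1.04, 1.07 and 1.08. Fos with Fosb, alternative partners of the Jun proteins, gave 1.34 (822 cells with both), and Fosb with Jun gave 1.27 (680 cells). The highest ratios belonged to rare genes, at 1.71 for Egr1 with Nr4a1, from 54 cells, and 1.66 for Fosb with Egr1, from 88 cells. Dusp2 stood aside again, with the lowest ratio, 0.904, beside Fosb, and 0.964 beside Fos. The pattern was weak against the rest of the table. Among 5849 genes seen in 5% to 95% of cells, a range that leaves out Egr1, the 28 pairs of the other 8 members had a median of 1.04, and 25.8% of all 17102476 pairs reached that value or more. The median of all those pairs was 1.00. Cells with 5 or more of the 9 members made up 26.2% of NK-like cells, beside 23.5% from the separate shares, and by tag 43.4%, 18.1% and 17.96%. In none, low and high Ccl cells they made up 22.0%, 24.8% and 33.7%, beside 19.4%, 22.4% and 32.6% from the separate shares.

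In the other tested classes the median pair ratio was 1.03 in ILC1-like, 1.07 in B cell-like, 1.13 in conventional dendritic cell-like, 1.27 in erythroid-like and 1.05 in T cell-like cells. Cells with 5 or more members made up 35.1% of ILC1-like, 37.0% of B cell-like, 27.7% of dendritic cell-like, 21.1% of erythroid-like and 31.5% of T cell-like cells, beside 34.3%, 34.9%, 22.4%, 18.1% and 24.9% from the separate shares. In the classes with the most such cells the share was below the one from separate shares, at 83.3% beside 90.3% in progenitor-like, 79.1% beside 85.4% in mural or fibroblast-like and 59.7% beside 62.7% in monocyte or macrophage-like cells. The mean number held there was 6.20, 5.74 and 4.92, above or near the cutoff of 5. A wider spread around such a mean lowers this share, so it does not show that members were found together less often. Cells without any member numbered 1, 0 and 2 (1.85%, 0% and 3.23%), beside 1.23e-04%, 2.22e-04% and 0.0188% from the separate shares. Erythroid-like cells also had the largest share without any member, at 21.1%, and by tag 61.3%, 20% and 4.17% of them held 5 or more.

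Across the 15 tag and class sums of the NK-like, ILC1-like, B cell-like, dendritic cell-like and erythroid-like classes, which share a library and are not independent, the genes whose log2 level was most like the mean of the members were Ppp1r15a (Pearson r = 0.82), Sik1 (0.81), Klf4 (0.80), Kdm6b (0.76), Pnrc1 (0.74), Zfp36 (0.74), Rbbp6 (0.74), Nfkb1 (0.72), Arl5b (0.71) and Ifi35 (0.71). Among the members themselves, r with that mean was 0.91 for Fosb, 0.87 for Fos, 0.85 for Nr4a1, 0.80 for Junb, 0.73 for Jund, 0.68 for Jun, 0.64 for Dusp1, 0.47 for Egr1 and 0.32 for Dusp2. Fos and Fosb were the pair most alike (0.93) and Egr1 and Dusp2 the least (-0.34). These values describe 15 sums and include the tag 1 difference.

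By the GRCm38 annotation, Fos lies on chromosome 12 (85473890 to 85477273, plus strand), Fosb on 7 (19302696 to 19310051, minus), Jun on 4 (95049034 to 95052222, minus), Junb on 8 (84974484 to 84978718, minus), Jund on 8 (70698949 to 70700616, plus), Egr1 on 18 (plus), Nr4a1 on 15 (101254269 to 101274795, plus), Dusp1 on 17 (26505590 to 26562128, minus) and Dusp2 on 2 (127336159 to 127338376, plus). Jun overlaps the antisense gene Junos, Jund overlaps Gm11175 and Junb overlaps Prdx2, each on the other strand. The RefSeq starts used for Nr4a1 and Dusp1 lie inside these longer gene models, 12577 and 53656 bases from their first base, that of Jund lies before its model, and those of the other 5 members with a window lie within 30 bases of it. The Dusp1 gene model overlaps 4 genes, 2 of them on its own strand, so its counts could hold reads of those genes. Neither labels nor headers say whether counting used strand.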

How the data were processed

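Single-cell RNA was measured in 1 tagged 10x Genomics library. The deposited matrix holds raw UMI counts per gene and barcode. Per the file headers, Cell Ranger 7.0.0 made it. Seurat and the mm10 build are named in the submitters' processing notes. Neither the annotation nor the use of introns is given. Barcodes passed with 500 to 6000 genes and mitochondrial UMIs of 10% or less, and a tag was called above 133, 187 or 130 counts for tags 1, 2 and 3. NK-like cells had at least 5 of 10 markers and at most 2 ILC1 markers. ILC1-like cells had at least 4 of 7 with Ncr1 or Klrb1c, at most 4 NK markers and at most 1 of any other class. The remaining classes had at least 3 markers, with no limit on ILC1 markers. NK-like cells and the remaining classes held at most 2 markers of any other class apart from ILC1. Doublets were treated only by removing barcodes with several tags and by these limits, and no doublet caller was run.

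UMI counts were summed per tag and class. Classes with at least 20 cells in every tag entered 1 fit with edgeR 4.0.16 (limma 3.58.1, R 4.3.3), with TMM factors, filterByExpr, tag as a block, the quasi-likelihood test and Benjamini-Hochberg adjustment over all genes. The tag pairs the classes because all classes of a tag come from 1 pool of cells. The members and lists were chosen with earlier results of these data known. Alternatives were DESeq2 1.42.0, RLE size factors, no block, no low-count filter, each tag left out, at most 5% mitochondrial UMIs, another marker in the gate, 5 or more UMIs for the high class and unthinned classes. The fits of T cell-like and progenitor-like cells (classes with at least 15 cells in every tag), the fit without scaling factors and the further thinning draws were chosen after seeing the data. Cells were thinned to 2400 UMIs with Python 3.11.15, numpy 2.4.6, scipy 1.17.1 and pandas 2.3.3, and plots were drawn with matplotlib 3.10.9.

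All members are named in every comparison, together with up to 3 called genes per list with the largest change, the 10 most changed genes in each direction between Ccl classes and the 10 genes most like the members, computed on log2(CPM + 10) among genes with a mean of at least 50 CPM. Genes that define a class were left out of its results. On simulated counts with a log2 change of 1 or 2, the fit recovered 56.8% and 83.9% of changed genes for ILC1-like cells (7798 genes), 78.8% and 98% for high against none (10808 genes) and 74.2% and 96.9% for Cd27-only against Itgam-only (10293 genes). False calls numbered 12, 7 and 15 in these comparisons, in the same order.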

Additional observations from a re-analysis of the deposited data

Results flagged for a closer look

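Barcodes with several tags entered no comparison. Their Dusp2 level was 391.8 CPM (95% interval 384.7 to 398.9, counting error only) over 3567 barcodes with a median of 7929 UMIs. This lies above the highest level among the single-tag cells of the 3 tags, which ran between 339.3 and 374.7 CPM. The other 8 members in these barcodes lay within the range of the 3 tags, for example Fos at 493 CPM, where single-tag cells had 338 to 832 CPM. With 3 tags per class no test for a sample standing apart within its group was run.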

How the results depend on the processing

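Of the counts and summary values of the comparisons, 245 alternative values stayed within 1.5 times the main value or on the same side and 37 moved. Of the values for single genes, 729 kept direction and call, 60 lost the call, 30 gained it, 6 moved and 21 reversed. Where no cause follows from fewer genes or tags, the cause was not tested. Without the tag as a block, members called fell to 1 in ILC1-like (main 4), 4 in dendritic cell-like (8), 4 in erythroid-like (7), 0 in Ccl high (8) and 2 in Cd27-only cells (7), and genes called to 26 higher and 8 lower in Ccl high cells and 544 higher and 337 lower in Cd27-only cells. DESeq2 called 5 members in dendritic cell-like and 4 in erythroid-like cells, 92 genes higher and 37 lower in Ccl high cells and 404 lower in Cd27-only cells. With every gene that has a UMI kept, 1020 genes were lower in ILC1-like cells (645), and 7 members were called there and 2 in T cell-like cells. Without scaling factors 4164 genes were lower in dendritic cell-like and 1456 in T cell-like cells, and 1 member was called in T cell-like cells. Classes by unthinned UMIs gave 485 genes higher and 304 lower in Ccl high and 1118 lower in Cd27-only cells, a high class of 5 or more UMIs gave 231 lower, and another draw of the thinning gave 258 lower in Ccl high cells. Another draw with at most 5% mitochondrial UMIs called 5 members in Cd27-only cells. Requiring 1 more marker gave no value for ILC1-like and progenitor-like cells, which became too few.

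Leaving out 1 tag at a time, genes lower in ILC1-like cells ran from 385 to 574 and members called from 3 to 9, genes higher in T cell-like cells from 510 to 721 and members called from 0 to 4, genes in Ccl high cells from 96 to 259 higher and 65 to 123 lower, and genes in Cd27-only cells from 566 to 757 higher and 325 to 512 lower. Log2 folds that changed sign in this way were Dusp1 in B cell-like cells (-0.12 to 0.30), Fosb (-0.46 to 0.80) and Jun (-0.071 to 1.34) in erythroid-like cells, Junb (-0.11 to 0.63) and Jund (-0.029 to 0.21) in T cell-like cells, Junb in progenitor-like cells (-0.12 to -0.027), Fosb in Ccl high cells (-0.033 to 0.24) and Dusp1 in Cd27-only cells (-0.18 to 0.11). Other reversals were Dusp1 in B cell-like cells without the block (-0.14), with every gene kept (-0.061), without scaling (-0.18) and at 5% mitochondrial UMIs (-0.0087), Fosb in erythroid-like cells without scaling (-0.072), Jund in T cell-like cells with every gene kept (-0.022) and without scaling (-0.073), Junb in progenitor-like cells with every gene kept (-0.16) and without scaling (-0.067), and Jund in Cd27-only cells in another draw of the thinning (-0.0025). All of these had not passed the test in the main comparison, except Jun in erythroid-like cells. Egr1 and Nr4a1 rest on the fewest counts in T cell-like cells, 17 and 24 UMIs.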

Other observations

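Cells that no gate took held more of several members than NK-like cells, as levels without a test. Over 1667 ungated cells, Egr1 had 196, 154 and 110.0 CPM in tags 1, 2 and 3, against 26.7, 16.2 and 16.4 CPM in NK-like cells, and Fos had 1267, 644 and 478 CPM, against 623, 274 and 205 CPM. Dusp2 had 248, 193 and 231 CPM in ungated cells, against 410.0, 405 and 549 CPM in NK-like cells. The groups did not overlap for Egr1 or Dusp2, with Egr1 the higher and Dusp2 the lower in ungated cells, and for Fos they overlapped. These cells mix types and doublets, so the values belong to no named cell type.

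Among the genes seen with Dusp2 in the same NK-like cells at 2400 UMIs, the highest ratios to the product of the shares belonged to Cx3cr1 (1.21), Serpinb9b (1.18) and Klrg1 (1.16), genes of mature NK cells. For Fosb they belonged to Gm26887 (1.47), Cd69 (1.42) and Sik1 (1.34), and for Nr4a1 to Ikzf2 (1.56), Pigu (1.55) and Cd38 (1.54). These genes were named after their values were seen.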
